A study of Arabidopsis thaliana with 6 samples.

Results

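The comparison described here is the step from 3 h to 24 h at 4 °C in whole Arabidopsis thaliana seedlings, the later stretch of a short cold treatment. It rests on 4 of the series' 6 arrays: the wild type (Columbia-0) and lcbk1-2, labelled a knock-out mutant, each with 1 array after 3 h and 1 after 24 h in the cold. The remaining 2 arrays, 1 per genotype, came from seedlings kept at 22 °C (0 h). They entered the fit for its estimate of spread and are quoted where they show where a gene started. All seedlings were 2 weeks old. They grew on half-strength MS medium to which 2% sucrose had been added, in days of 16 h light and 8 h dark, and no other agent is named in the labels. LCBK1 is a kinase that phosphorylates the long-chain bases of sphingolipids, and 0 probe sets were annotated to it, so the mutation could not be checked on the arrays. Transcripts were read on ATH1 arrays, which carry several short probes per transcript.

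Cold acclimation is the process by which temperate plants become tolerant of freezing after days at low, non-freezing temperature. A first wave of short-lived regulators, among them calcium-linked proteins, zinc-finger proteins and DREB-type factors, is followed by a slower wave of protective proteins such as dehydrins and other LEA (late embryogenesis abundant) proteins. Soluble sugars accumulate, growth slows, and the enzymes that loosen and build the cell wall are adjusted.

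Each genotype stood in for 1 replicate of the time step, since no condition had more than 1 array. The SE and p of every shared change therefore hold array error together with any difference between the genotypes in their response, not a spread between replicate cultures. No seedlings kept at 22 °C were sampled at 3 h or 24 h, so a longer stay in the cold cannot be told apart from the time of day or from plant age. In whole seedlings, fewer cells of a type and less RNA per cell cannot be told apart either. Median signals lay between 144 and 171 over the 6 arrays, and 63.6% to 66.1% of probe sets exceeded a signal of 66, the floor to which lower values were set. The ratio of the 3′ to the 5′ control probe set of a gene is a sign of RNA integrity. For GAPDH it was 0.871 (wild type) and 1.52 (lcbk1-2) at 3 h and 1.10 and 1.08 at 24 h. For actin it was far higher, 12.97 and 19.79 at 3 h and 16.07 and 16.57 at 24 h. For ubiquitin it was 1.78 and 2.15 at 3 h and 2.69 and 2.19 at 24 h. The part of these ratios in the results was not tested. The labelled tissue, whole plant, was borne out by its markers: 15 of 15 nuclear photosynthesis genes and 3 of 3 root genes were above the floor on enough arrays to be tested. PYK10, an abundant root β-glucosidase, read 16738 at 3 h and 19831 at 24 h in the wild type, and 19408 and 20924 in lcbk1-2.

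Of 15655 features tested, 5338 (34.1%) differed between 3 h and 24 h at an adjusted p under 0.05 in limma. Of the tested features, 2021 (12.9%) were higher and 3317 (21.2%) lower at 24 h. A called change of at least 2-fold was seen in 841 (5.37%) upwards and 1319 (8.43%) downwards. These shares are the background for every gene list below. The balance of directions depended on the scaling of the arrays: rises were 37.9% of the calls as deposited, 48.7% after quantile normalization and 51.8% after scaling to a common median. The median change of all tested features moved with it, from −0.08 on the log2 scale as deposited to −0.01 and 0.04, so small falls in particular are relative to the scaling. The step was large for few features: 60 rose at least 8-fold and 43 fell at least 8-fold.

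In most features the genotypes moved the same way: 11967 of 15655 changed with the same sign. At least 2-fold higher signals at 24 h were found for 938 features (5.99%) in wild-type seedlings and 891 (5.69%) in lcbk1-2; 680 were shared. At least 2-fold lower signals were found for 1451 (9.27%) and 1471 (9.40%), with 995 shared. No feature (0 of 15655) moved 2-fold up in one genotype and 2-fold down in the other. Across features, which are not independent replicates, the changes in the genotypes correlated at a Pearson r of 0.865, and they share no array. The median distance between the genotypes' changes was 0.24 on the log2 scale, and 95% of features lay within 0.83.

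**Figure D1:**
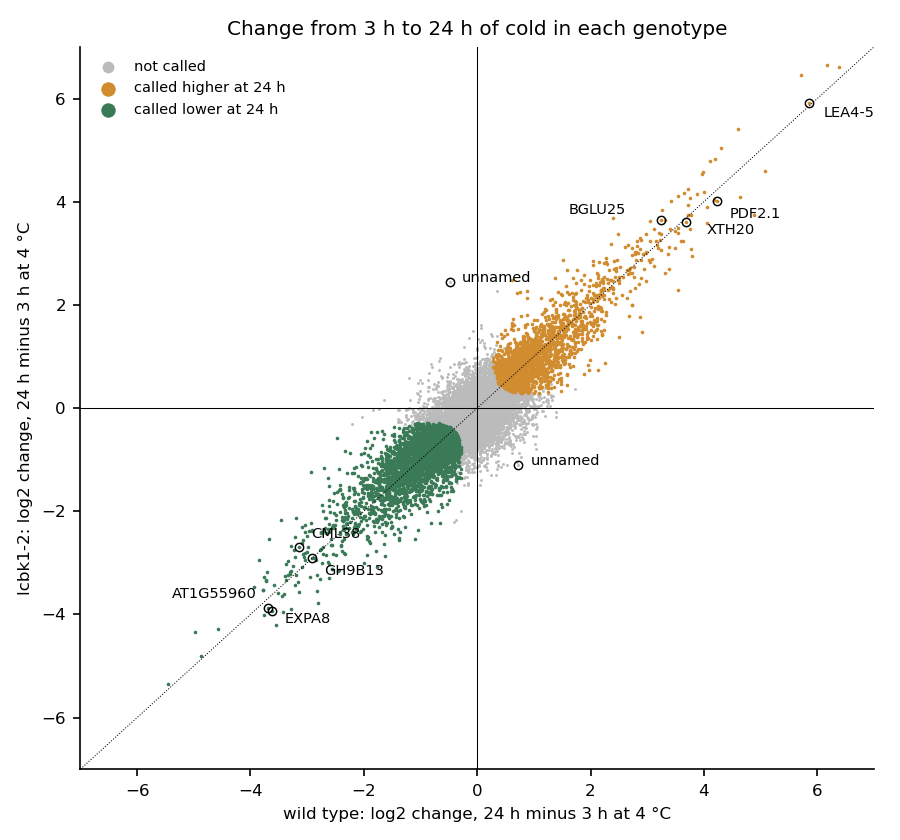
Log2 change from 3 h to 24 h at 4 °C in lcbk1-2 (y axis) against the wild type (x axis) for 15655 tested features, 1 array per time and genotype. Features called higher or lower over both genotypes are coloured and the dotted line marks equal change. Most called features lie along it, and 2 unnamed features with opposite changes stand off it.

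Protective proteins of the slow wave were among the largest rises. LEA4-5, an LEA protein that protects other proteins during drying, read 129 and 135 at 3 h in the wild type and lcbk1-2 and 7414 and 8174 at 24 h. That was a 59.1-fold rise (log2 change 5.89 ± 0.15 SE, adjusted p = 6.49e-05), and at 22 °C its signals had been 212 and 287, above those at 3 h. AT2G44060 and AT2G46140, the other LEA genes outside the dehydrins that were tested, were not called (adjusted p = 0.998 and 0.461). All 7 tested members of the cold-regulated and dehydrin list rose, with a median log2 change of 2.48 against −0.08 for all features. COR15B, a chloroplast protein that stabilises membranes on freezing, read 1095 and 1678 at 3 h and 18196 and 20207 at 24 h, a log2 change of 3.82 ± 0.19 (adjusted p = 0.000123). LTI30, a dehydrin, read 7954 and 7094 at 3 h and 44269 and 39754 at 24 h, and both values at 24 h lay far above both at 3 h. COR27, a regulator that links cold to the clock, rose by 4.67 ± 0.20 and COR15A by 4.31 ± 0.28. COR47, another dehydrin, rose by 2.03 ± 0.15 and AT1G54410, a list member without a symbol here, by 1.77 ± 0.13. AT4G33980 had the widest gap between genotypes, from 294 to 496 in wild-type seedlings and 153 to 722 in lcbk1-2. Its call (adjusted p = 0.0161) was lost on the 4 cold arrays alone, where 6 of the 7 members remained called. COR15A and COR15B are near-identical neighbours, with 0 genes between them, and their signals may not be independent. Without the filter on dim probe sets, 4 of the 7 were called.

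A second group of large rises held proteins of other kinds. SERPIN1, an inhibitor of proteases, read 1186 and 1001 at 3 h and 9855 and 12332 at 24 h, a 10.1-fold rise. BETA-VPE, a vacuolar protease that processes storage proteins in seeds, rose from 280 on both 3 h arrays to 2655 and 2893. DI21, a drought-induced gene, went from 1113 and 945 to 9720 and 10418. TIL, a lipocalin that protects membranes from heat and cold, rose 5.11-fold, from 3610 and 4027 to 19117 and 19886. None of the 4 had moved by more than 0.40 on the log2 scale from 0 h to 3 h, a step that shares the 3 h arrays. PDC2, a pyruvate decarboxylase of ethanol fermentation, read 533 and 404 at 3 h and 4184 and 4191 at 24 h (log2 change 3.17 ± 0.16). BGLU25, a β-glucosidase, rose from 475 and 451 to 4484 and 5641. SAT32, a salt-tolerance gene, rose 4.90-fold and UGT80B1, a sterol glucosyltransferase, 4.61-fold. CCT2, which makes the activated head group for phosphatidylcholine, rose 4.81-fold. GI, a clock-linked regulator of flowering and of cold tolerance, read 363 and 307 at 0 h, 783 and 652 at 3 h and 5504 and 5782 at 24 h. GI transcripts cycle through the day, and the hour of sampling is not given.

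Among genes that the annotation gave no symbol, 10 rises were named by size. AT1G16850 rose 85.2-fold, from 126 and 127 to 9111 and 12719. AT3G17130 rose from 421 and 521 to 10528 and 8926, AT2G21130 from 355 and 361 to 5883 and 5363, and AT3G55760 from 146 and 168 to 1925 and 2561. In each of them both 24 h values exceeded both 3 h values by more than 10-fold. The others were AT2G22590, AT1G32860, AT1G64890, AT2G38465, AT4G16146 and AT3G55580, with log2 changes from 3.76 to 4.83.

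Some transcripts crossed from the floor to a clear signal. At the floor on both 3 h arrays and at least 4 times it on both 24 h arrays were 16 features, 9 of them annotated to 1 gene, and all 16 were called. UGT78D3, a flavonol glycosyltransferase, read 5.22 and 54.9 at 3 h and 740 and 713 at 24 h, at least 11.0-fold higher. WNK9, a member of the WNK protein kinases, read 40.8 and 58.0 and then 305 and 299, at least 4.57-fold higher. AT2G38465 went from 37.6 and 51.2 to 871 and 1250, and AT2G24560 from 30.6 and 4.13 to 818 and 619. AT4G33905, AT4G01130, AT5G50360, AT5G05220 and AT4G30830 completed the set, at least 5.61- to 9.01-fold higher. For all 9 the bound is set by the floor, and the higher floor tried as an alternative gave log2 changes down to 1.19.

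The reverse crossing was made by 12 features, 6 of them annotated to 1 gene. UGT71C1, a glycosyltransferase, read 419 and 291 at 3 h and 35.0 and 37.0 at 24 h, at least 5.29-fold lower. AT5G51390 fell from 620 and 444 to 26.4 and 35.1, and AT1G14120 from 394 and 414 to 35.3 and 26.3. AT1G13650, AT1G76110 and AT3G47560 fell at least 4.35- to 5.99-fold. As with the crossings upwards, the floor sets these bounds.

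Of the expansin, xyloglucan and other wall genes tested, 27 fell and 6 rose. Expansins are proteins that loosen the wall so that cells can enlarge. Of 15 expansins tested, 9 fell and 4 rose, with a median of −0.69. EXPA8 fell furthest: it read 2719 and 2984 at 0 h, 921 and 1007 at 3 h and 75.0 and 54.7 at 24 h, a log2 change of −3.77 ± 0.15 from 3 h to 24 h (adjusted p = 0.000107). With lcbk1-2 below the floor at 24 h, the size of that fall is a lower bound. EXPA4 read 1522 and 1584 at 3 h and 247 and 312 at 24 h, and EXPB3 read 1586 and 2081 and then 348 and 392. From 0 h to 3 h these had changed by −0.14 and 0.42. EXPB1 (−1.95), EXPA15 (−1.25), EXPA9 (−0.94) and EXLB1 (−0.94) fell less. EXPA7 and EXPA18, which act in root hairs, fell by 0.61 and 0.53, and both calls were lost after quantile normalization and after median scaling, which left 7 falls.

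Expansins also held the clearest opposite movement. The 3 expansin-like A genes all rose. EXLA2 read 377 and 257 at 3 h and 1639 and 1577 at 24 h, a 5.17-fold rise (adjusted p = 0.000427). EXLA3 read 63.8 and 107 and then 318 and 376, and EXLA1 read 904 and 668 and then 2332 and 3839. EXLA1 and EXLA3 are chromosomal neighbours, with 0 genes between them. The other riser was EXPA16, from 90.1 and 69.3 to 369 and 217, which had been at 159 and 262 at 22 °C. Under both other scalings 4 expansins rose and 7 fell, but none of the 4 rises was called without the filter on dim probe sets.

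Xyloglucan is the polymer that tethers cellulose, and XTH enzymes cut and rejoin it. XTH20 read 81.5 and 86.4 at 3 h and 1047 and 1056 at 24 h, 12.5-fold higher (log2 change 3.65 ± 0.13, adjusted p = 0.000107). Among the 8 genes of the list it was the single riser as deposited, while EXGT-A3, XTH16 and XTH19 fell and 4 were not called. Under either other scaling 2 genes of the list were called higher. EXGT-A3 read 5562 and 5063 and then 2168 and 2334. XTH16 read 726 and 728 and then 320 and 296. XTH19 fell by 0.77 ± 0.20, a call lost after median scaling. Without either 24 h array XTH20 was still called and 0 genes of the list were called lower.

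Of 37 further wall genes tested, 15 fell and 1 rose, with a median of −0.42. Synthases that make the backbones of hemicelluloses were among the falls. CSLA03 went from 496 and 395 to 87.4 and 82.0, CSLC04 from 1262 and 1048 to 438 and 367, and CSLC5 from 773 and 769 to 325 and 402. ATCSLC08 fell by 1.17, but by 0.33 with a doubled floor, where its call was lost. GH9B13, GH9B8 and GH9C2, endoglucanases of glycosyl hydrolase family 9, fell by 2.92, 1.20 and 1.30. GH9B13 went from 499 and 540 to 45.1 and 71.7, and with 1 array below the floor its fall is a lower bound. PME61, a pectin methylesterase, fell by 1.33. TBL proteins add acetyl groups to wall polymers, and TBL25, TBL26, TBL28, TBL35, TBL36 and TBL37 fell by 0.77 to 1.71. TBL26 differed most between genotypes among them, falling by 0.69 in wild-type seedlings (353 to 218) and 2.00 in lcbk1-2 (731 to 182), and its call was lost on the 4 cold arrays alone. The one rise was COB, which orients cellulose deposition in expanding cells, from 2782 and 2605 to 4333 and 4487. The count of 15 falls was the same under both other scalings, and leaving out an array at 24 h left 4 to 6.

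**Figure D2:**
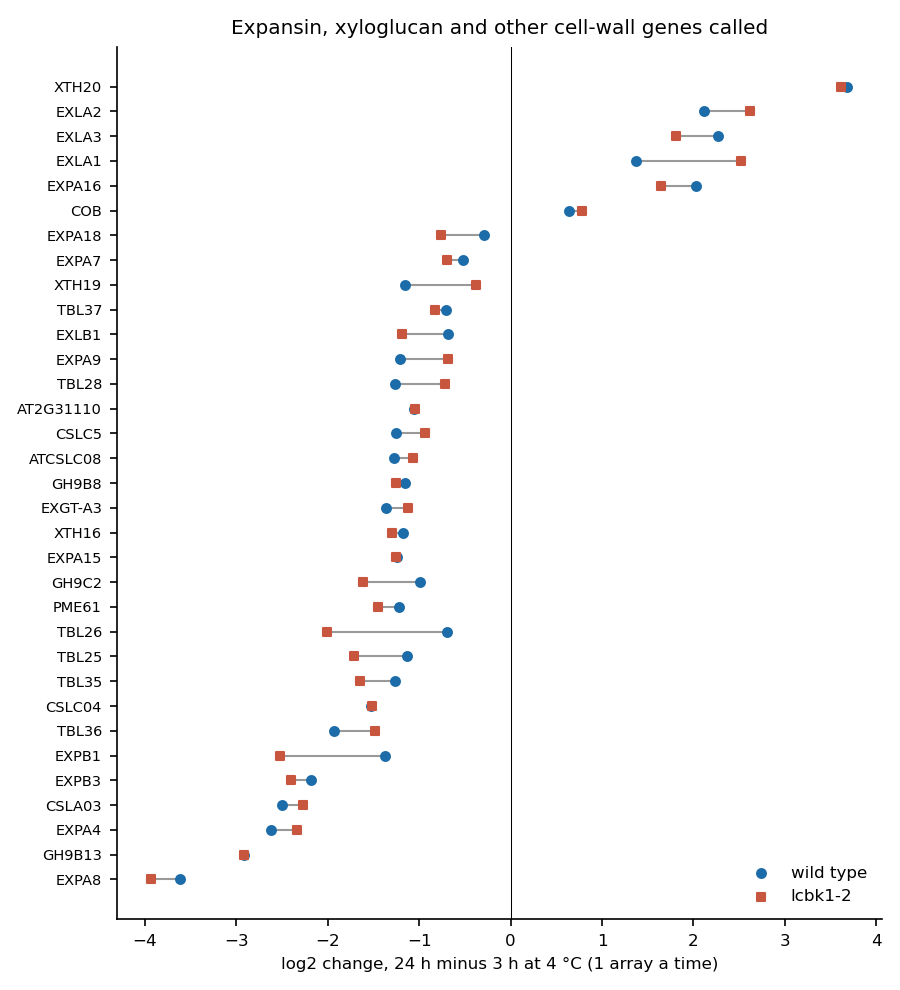
Log2 change from 3 h to 24 h at 4 °C in the wild type (circles) and lcbk1-2 (squares) for the 33 expansin, xyloglucan and other wall genes that were called, 1 array per time and genotype. All 33 moved the same way in both genotypes: 27 fell and 6 rose, led by XTH20, EXLA2 and EXLA3.

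Several genes, some of them regulators, stood higher at 3 h than at either 0 h or 24 h. CML38, a calmodulin-like calcium sensor, read 187 and 272 at 0 h, 2032 and 3114 at 3 h and 230 and 484 at 24 h. From 3 h to 24 h it fell 7.54-fold (log2 change −2.91 ± 0.17, adjusted p = 0.000211). STZ, a zinc-finger repressor induced by salt and cold, read 317 and 339, then 5030 and 5741, then 1366 and 1795, so that at 24 h it was lower than at 3 h and still above 22 °C. AT1G18740 read 794 and 821, then 4926 and 5343, then 373 and 523, below its start. AT1G55960 and AT1G74450 followed the same course, with log2 changes of −3.79 and −3.36 from 3 h to 24 h. PUB23, a ubiquitin ligase of stress signalling, went from 646 and 627 to 181 and 212. These rises and falls share the 3 h arrays, so an error on a 3 h array would move both.

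Of the 8 calmodulins and calmodulin-like genes tested, 5 fell and 1 rose, with a median of −0.77. Beside CML38, the fallers were CML30 (−1.05), CML23 (−0.96), CML43 (−0.89) and CML42 (−0.65). With a doubled floor CML43 changed by −0.07 and lost its call, CML30 changed by −0.47, and 4 of the 8 genes were tested. The riser was CML37, from 71.3 and 130 to 131 and 278, whose call was lost without the genotype term and with a floor of 33 in place of 66. IQD proteins are scaffolds that bind calmodulin at microtubules: 6 of 10 fell and IQD23 rose, and under either other scaling 3 fell, as did 2 to 3 without 1 of the cold arrays. IQD24 read 510 and 672 at 3 h and 195 and 238 at 24 h, and IQD22 read 325 and 356 and then 133 and 149. Of 11 U-box and ATL ubiquitin ligases, 4 fell and 0 rose, and 1 fell without either 24 h array.

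Transcription factors moved in both directions. Of 23 bHLH and bZIP factors, 5 rose and 7 fell, with a median of −0.04 close to that of all features. Leaving out 1 cold array left 1 to 2 rises and 2 to 4 falls. BZIP61 read 1742 and 1895 at 0 h, 598 and 427 at 3 h and 75.8 and 41.2 at 24 h, a fall of at least 7.14-fold from 3 h. bZIP44 rose from 599 and 512 to 1717 and 1689. BZIP60, a factor of the unfolded-protein response, rose from 1248 and 1236 to 2576 and 2944, and BZIP17, of the same response, rose by 0.63. TINY2, a DREB-type factor, went from 137 and 162 to 474 and 464, and WRKY6 from 276 and 284 to 816 and 763. WRKY22 and WRKY47 fell by 1.18 and 0.88. GT2, a trihelix factor, fell from 535 and 589 to 106 and 144.

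Among auxin and cytokinin genes, falls prevailed. Of 11 auxin genes tested, 6 fell and 0 rose, with a median of −0.81, and the count was 6 under both other scalings. HAT2, an auxin-induced homeodomain factor, read 1334 and 1307 at 3 h and 293 and 327 at 24 h, a 4.26-fold fall. WES1 and GH3.17, which conjugate auxin to amino acids, fell from 1082 and 931 to 349 and 381 and from 967 and 866 to 328 and 364. IAA18, an auxin response repressor, and YUC2, an auxin synthesis enzyme, fell by 0.97 and 0.95. With a doubled floor YUC2 fell by 0.14 and lost its call. Both cytokinin genes tested, the type-A response regulators ARR15 and RR16, fell. ARR15 read 84.7 and 67.2 at 0 h, 261 and 282 at 3 h and 5.17 and 64.5 at 24 h, at least 4.12-fold lower than at 3 h. RTE1, a regulator of an ethylene receptor, fell by 1.11. GID1B, a gibberellin receptor, rose from 344 and 273 to 640 and 712. Its relative GID1C fell by 0.54, at the edge of the threshold (adjusted p = 0.0498), and that call was lost under quantile normalization and median scaling. The 4 other gibberellin genes tested were not called. BRL1, the 1 brassinosteroid gene tested, rose by 0.53 (adjusted p = 0.0499), a call lost on the 4 cold arrays alone.

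Further large falls lay outside these lists. BGLU40, a β-glucosidase, read 254 and 252 at 0 h, 964 and 1201 at 3 h and 140 and 121 at 24 h, an 8.27-fold fall from 3 h. NET4B, an actin-binding protein, fell from 961 and 1334 to 252 and 345. P1R1 fell at least 4.11-fold, from 293 and 251 to below the floor on both arrays, and SIS, a salt-induced gene, fell from 448 and 388 to 94.0 and 129. Among genes without a symbol, AT4G33666 fell furthest, from 2525 and 3022 to 186 and 187, a 14.8-fold fall. AT2G34620 went from 1448 and 1866 to 135 and 120, AT5G57785 from 2466 and 2152 to 226 and 172, and AT5G11070 from 3448 and 3059 to 323 and 252. For each of these genes every 24 h signal was below every 3 h signal. P1R1 and AT5G57785 are neighbours, with 0 genes between them.

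**Figure D3:**
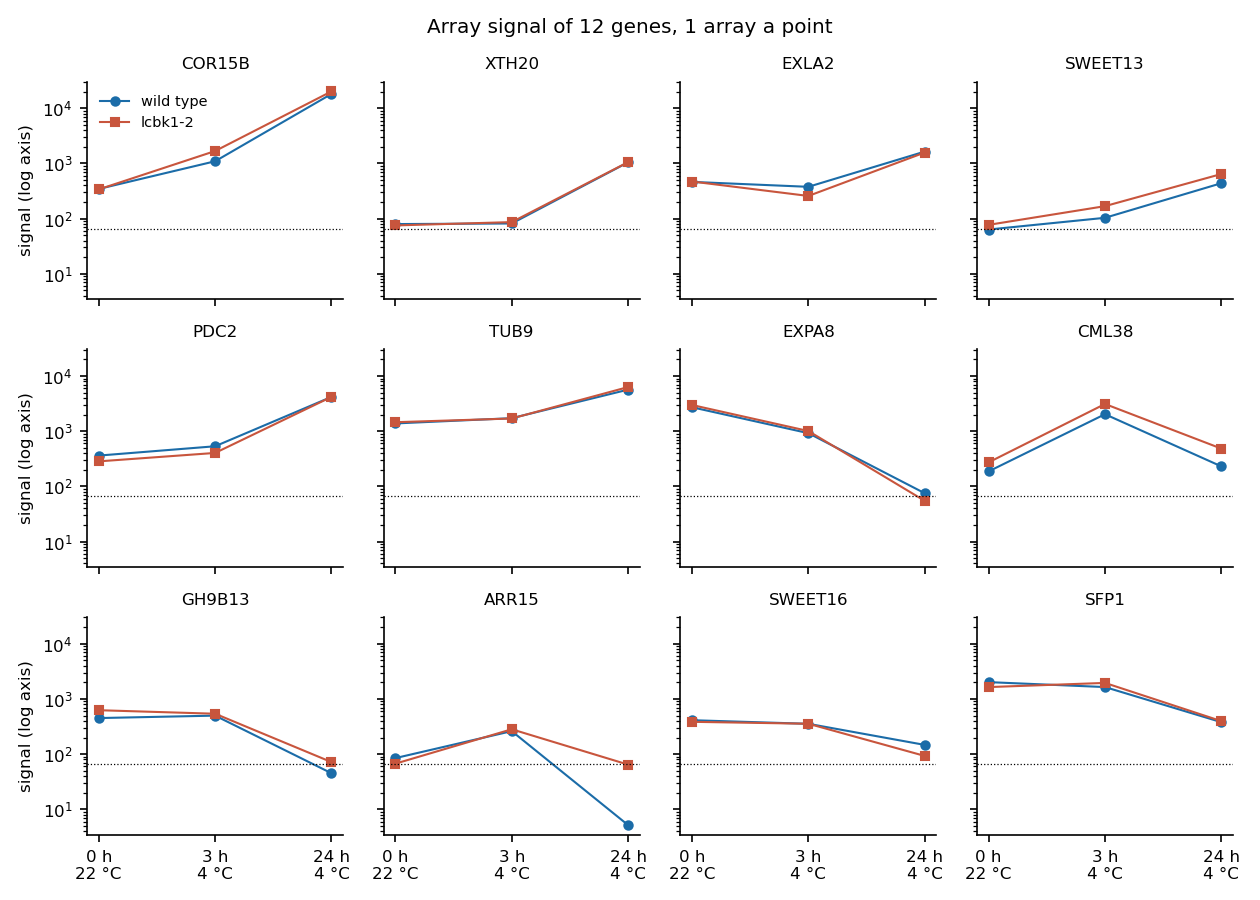
Array signal (log axis) of 12 genes at 0 h (22 °C), 3 h and 24 h (4 °C) in the wild type (circles) and lcbk1-2 (squares), 1 array a point. The dotted line is the floor of 66. COR15B to TUB9 are higher on both 24 h arrays than on both 3 h arrays and EXPA8 to SFP1 lower, with CML38 and ARR15 highest at 3 h.

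Sugar transporters moved in both directions. Of 16 tested, 4 rose (25%) and 4 fell (25%), against 12.9% and 21.2% of all features, and the list median was 0.01. TMT2, which loads sugars into the vacuole, read 373 and 425 at 3 h and 1544 and 1776 at 24 h, a log2 change of 2.06 ± 0.14. SWEET13, a sucrose exporter, went from 103 and 168 to 438 and 643, and SWEET1, a glucose carrier, from 1009 and 1212 to 3075 and 3100. TMT1 rose by 0.50, a call lost on the 4 cold arrays alone. SWEET16 and SWEET17, which carry sugars across the vacuolar membrane, fell from 355 on both 3 h arrays to 147 and 92.8 and from 1408 and 1467 to 565 and 691. SFP1 and SFP2 are neighbours, with 0 genes between them, in the ERD6-like sugar carrier family. SFP1 fell from 1644 and 1954 to 380 and 397 and SFP2 from 281 and 349 to 87.2 and 65.3. Without either 24 h array 2 transporters rose and 3 fell.

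Genes that mark sugar and energy starvation were lower. Of 8 tested, 7 fell and AT1G62510 was not called (−0.11), with a median of −2.11. AKINBETA1, a regulatory subunit of the SnRK1 energy-sensing kinase, read 2476 and 2733 at 0 h, 452 and 433 at 3 h and 122 and 137 at 24 h. AT5G19120 read 7214 and 6636, then 2152 and 1853, then 244 and 156. AT2G20670 and AT4G27450 fell by 3.40 and 3.29 between 3 h and 24 h. The count was 7 under both other scalings and on the 4 cold arrays alone. Leaving out the 24 h array of the wild type left 5 called, and leaving out that of lcbk1-2 left 4.

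Some genes of breakdown pathways fell as well. In the list for branched-chain amino-acid breakdown, 4 of 11 fell and 0 rose. MCCA and MCCB, the subunits of methylcrotonyl-CoA carboxylase, fell by 1.21 and 0.92, and IVD, isovaleryl-CoA dehydrogenase, by 0.78. AT4G33150, a list member that acts in lysine breakdown and not in this pathway, fell by 1.29. MCCA read 1390 and 1438 at 0 h, 327 and 329 at 3 h and 151 and 132.2 at 24 h. In autophagy, 3 of 11 fell (27.3%) and 1 rose (9.09%), near the shares of all features (21.2% and 12.9%). ATG8 proteins coat the autophagosome membrane. ATG8E went from 684 and 666 to 234 and 223 and ATG8F from 2314 and 2249 to 785 and 1065, whereas ATG8D rose from 228 and 231 to 443 and 557. ATG8C fell by 0.55, a call lost after median scaling. Leaving out the 24 h array of the wild type or of lcbk1-2 left 2 and 1 falls in the first list and 1 and 1 in the second.

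Several genes of ribosome assembly and of protein folding were called higher, while others of the same lists were not. In ribosome biogenesis, 7 of 11 rose and 0 fell, with a median of 0.58. PRH75, a nucleolar RNA helicase, read 1572 and 1574 at 3 h and 3095 and 3449 at 24 h. RRP41L and RRP41, relatives in the RNA exosome, rose by 0.74 and 0.48, and DIM1A, an rRNA methylase, by 0.58. The changes were small: with the floor at 33, 4 were called, and leaving out 1 cold array left 0 to 2. Among 8 heat-shock genes, 4 rose and 2 fell, and neither fall was called under the other scalings. Fes1A, a partner of Hsp70, went from 455 and 450 to 1806 and 1543, and Hsp70-2 from 570 and 680 to 2187 and 1716. Hop1, a co-chaperone, rose by 0.68. Without either 24 h array 1 heat-shock gene was called higher.

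Glycosyltransferases of the UGT family, which attach sugars to small molecules, went both ways. Of 37 tested, 14 rose and 12 fell, with a median of 0.23. UGT73B4 and UGT73B5, neighbours with 0 genes between them, rose from 124 and 99.9 to 559 and 370 and from 130 and 101 to 338 and 381. UGT84A3, which makes sinapate esters, rose from 562 and 581 to 1558 and 1413, while its neighbour UGT84A4 fell from 189 and 170 to 81.4 and 61.4. UGT76C2, which inactivates cytokinins, fell from 421 and 398 to 137 and 136. UGT74B1, an enzyme of glucosinolate synthesis, fell from 1910 and 1998 to 423 and 632, and GTR2, a glucosinolate transporter, fell by 1.23. UGT72E1 and UGT72E2, which glycosylate lignin precursors, fell by 1.21 and 1.45. UGT78D2, which glycosylates flavonoids, read 374 and 567 at 0 h, 2634 and 3609 at 3 h and 7904 and 7163 at 24 h.

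A smaller share of other detoxifying enzymes was called. Of 11 glutathione transferases, GSTU25 and GSTU22 rose (18.2%) and GSTU18, GSTU28 and GSTU27 fell (27.3%). These shares were near those of all features (12.9% and 21.2%). GSTU25 went from 748 and 780 to 4392 and 3568, and GSTU28 from 369 and 331 to 98.0 and 75.9. Without either 24 h array 1 rose and 2 fell. Of 14 cytochrome P450 genes, 5 fell and 0 rose; without either 24 h array 0 fell, without a 3 h array 2 or 3, and 2 of the 12 genes tested with a doubled floor. Of 10 genes in the list of jasmonate genes and defensins, the 3 that rose were all defensin-like peptides: PDF2.1, from 246 and 330 to 4615 and 5296, LCR69, from 12047 and 11990 to 38778 and 33460, and LCR68, by 0.58. Between PDF2.1 and LCR69 lies 1 gene and between PDF2.1 and LCR68 0. The call of LCR68 was lost after quantile normalization.

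In the sphingolipid list, to which the mutated gene belongs, 5 of 10 fell and 2 rose. Without either 24 h array 0 of them were called, and without either 3 h array 3 fell and 0 rose. LCB2, a subunit of the first enzyme of sphingoid base synthesis, read 560 and 479 at 3 h and 237 and 200 at 24 h. TSC10A and TSC10B, which carry out the next step, fell by 0.74 and 1.09. With a doubled floor TSC10B fell by 0.26 and lost its call. AT2G19880, another member of the list, fell by 1.37. ATCES1, a ceramidase, rose by 0.84, whereas AT1G07380, also a ceramidase, fell by 0.62, a call lost after quantile normalization. LCB2 fell by nearly the same in each genotype, 1.24 in the wild type and 1.26 in lcbk1-2.

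As deposited, photosynthesis genes were close to level across the step, though their medians followed the scaling. Of 15 nuclear photosynthesis genes, 0 rose and LHCB4.2, a light-harvesting protein, fell by 0.51, a call lost after median scaling. The median of the list was 0.03 as deposited, −0.19 after quantile normalization and 0.17 after median scaling. RCA, Rubisco activase, changed by 0.21 (adjusted p = 0.326) and PRK, phosphoribulokinase, by −0.10. Of 68 chloroplast-encoded genes, 0 rose and 3 fell, with a median of −0.03. After quantile normalization 5 fell and the median was −0.13. After median scaling 2 rose, 3 fell and the median was 0.11. Without either 24 h array 0 of them were called. The 3 that fell as deposited encode ribosomal proteins: rps14, from 255 and 569 to 97.7 and 96.2, rps18, by 0.80, and rpl33, by 0.73. In chlorophyll synthesis, PORB rose by 0.79, whereas CHLM and HEME1 fell by 0.52 and 0.50, both lost after median scaling.

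Of 22 genes of the cell cycle and of tubulin, 7 fell and 2 rose, but 1 fall was called under either other scaling and 0 without any 1 of the cold arrays. TUB9, a β-tubulin, read 1721 and 1699 at 3 h and 5668 and 6313 at 24 h, a 3.50-fold rise. TUB5 rose by 0.66. SIM, an inhibitor of cell division in leaf hairs, read 1093 and 1010 at 0 h, 407 and 383 at 3 h and 199 and 226 at 24 h. NDB2, a mitochondrial NADH dehydrogenase outside complex I, rose from 797 and 664 to 1819 and 1563. PEX4, a gene in use as a reference for expression, rose from 1099 and 1089 to 2117 and 2050, and the 4 other reference genes tested were not called.

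**Figure D4:**
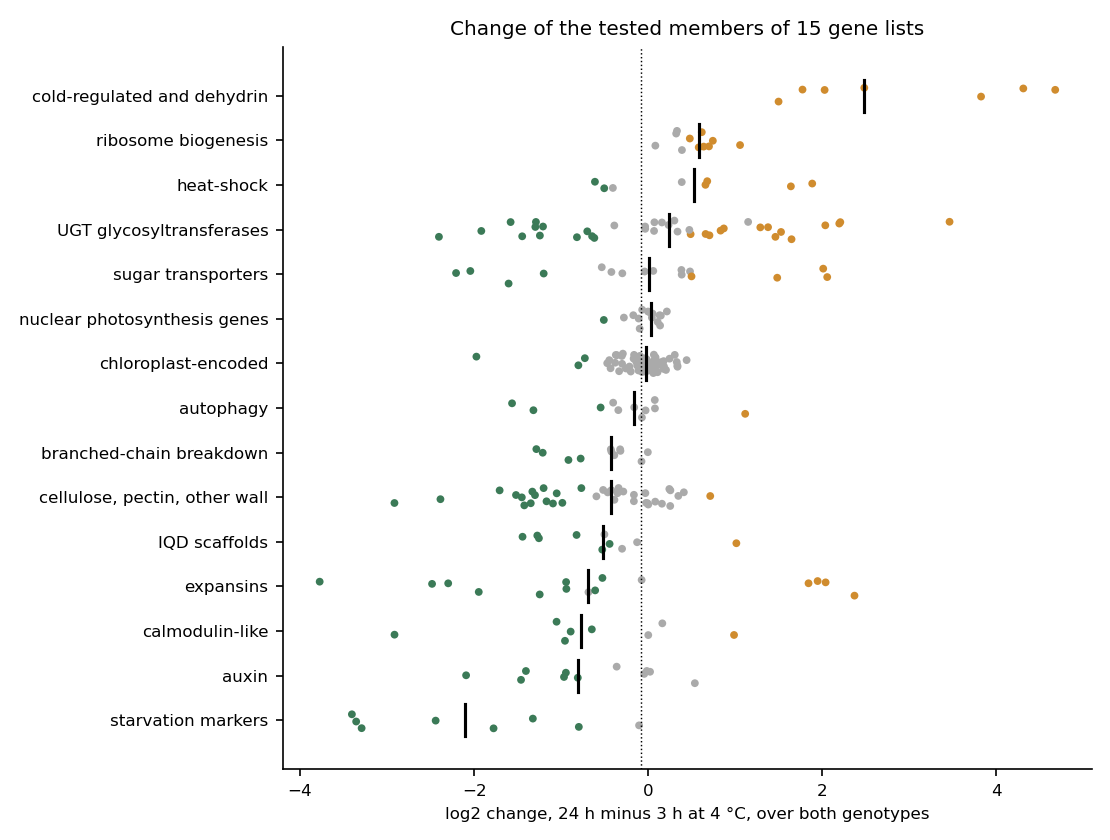
Log2 change from 3 h to 24 h at 4 °C over both genotypes (x axis) of the tested members of 15 gene lists (rows), with 1 point a gene. Orange points were called higher, green points lower and grey points neither; black bars are list medians and the dotted line is the median of all tested features. The cold-regulated list lies wholly to the right and the starvation markers to the left, while expansins, UGTs and sugar transporters spread to both sides.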

How the data were processed

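Each ATH1 array received labelled target prepared from 6 µg of RNA, per the labels. The authors' deposited table gives each probe set's intensity on every array. The submitters' processing notes name MAS5, but neither its version nor its settings. The deposited intensities are linear and share 1 trimmed mean of about 500.1, so arrays had been scaled to it.

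Of 22810 features, 64 controls were left out. Probe sets were named from the platform annotation and the RefSeq gene table of TAIR10.1: 13513 had 1 gene (13436 with a locus), 503 several and 8730 none. Those without a name stayed in the tests and may hold further members of a list. Chloroplast genes were placed by chromosome. A gene's brightest probe set was kept, which set aside 150.

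Signals under 66 were set to 66 and log2 was taken. Features above 66 on at least 2 of 6 arrays were tested (15655: 8473 with 1 gene, 316 several, 6866 none) with limma 3.58.1 in R 4.3.3, genotype plus time, two-sided, Benjamini-Hochberg over all features, threshold 0.05, 2 residual degrees of freedom (prior 4.19). The genotype term pairs the arrays, from the labels. The script was tested on simulated data. Values at the floor do not vary, so SE and p of such features can be too small. Changes within a genotype (1 array against 1) have no test. Fold changes against a group at the floor on both arrays are "at least". Where only 1 array of a group was at the floor, the size of the change is also a lower bound.

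Named were the 20 largest rises and falls with a symbol and 10 without, called and at least 2-fold in both genotypes; features crossing between the floor and 4 times it; called members of 56 gene lists; and the 5 largest genotype differences. The comparison, members and lists were chosen with earlier results of these data known. List members come from symbols and loci, with 23 false symbol matches removed. No set test was run. Alternatives were the 4 cold arrays alone, no genotype term, other floors (33 or higher) or log2(signal + 16), filters, scalings, limma-trend, averaging probe sets and leaving out each array.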

Additional observations from a re-analysis of the deposited data

Results flagged for a closer look

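In 4 results the wild type and lcbk1-2 moved in opposite directions between 3 h and 24 h, with changes at least 2-fold apart; with 1 array per genotype and time, the difference was not tested. The unnamed feature with the largest gap read 338 and 242 in the wild type and 91.4 and 500 in lcbk1-2, a difference between the changes of 2.94 on the log2 scale. Another unnamed feature read 83.2 and 138 in the wild type and 162 and 75.7 in lcbk1-2, a difference of −1.83. psbT, a chloroplast gene of photosystem II, read 600 and 372 in the wild type and 876 and 1237 in lcbk1-2, a difference of 1.19. GUT2, a gene of xylan synthesis, read 222 and 122 in the wild type and 196 and 222 in lcbk1-2, a difference of 1.04. None of the 4 was called as a shared change.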

How the results depend on the processing

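The number of called features stayed within 1.5 times 5338 under 10 of 11 alternatives other than leaving out an array (3950 to 5789). Without the filter on dim probe sets it was 1583, with 660 rises and 923 falls; the floored features that entered do not vary, and the prior SD of the fit fell from 0.158 to 0.00474. Leaving out each array in turn gave 1085 to 3950 calls, 453 to 1511 of them rises and 632 to 2439 falls, from 1 residual degree of freedom. The lowest total came without the 24 h array of lcbk1-2, followed by 1297 without that of the wild type, 2240 without the wild type at 3 h and 2291 without lcbk1-2 at 3 h. In those 4 fits the lone array of a time is taken to vary like the rest. The fit without either 0 h array equals that on the 4 cold arrays (3950), since a lone 0 h array is fitted exactly. Without the genotype term (no replicate block) 5113 features were called.

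Of the 243 named or listed genes called, 99 kept their call in all 11 alternatives, 79 lost it only without the filter and 65 under at least 1 other. No call reversed. Leaving out 1 of the 4 cold arrays left 4 to 5 of 9 expansin falls, 3 to 4 of 6 auxin falls, 1 to 3 of 5 calmodulin-like falls, 4 to 6 of 7 starvation falls, 5 to 7 of 7 cold-regulated rises and, of the UGTs, 3 to 10 of 14 rises and 5 to 9 of 12 falls. Depth of signal limits the genes near the floor: there the size of a change follows the floor chosen.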
